A study of Mus musculus with 12 samples.

Results

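Calcium pumps and sodium-calcium exchangers are the membrane proteins that take calcium out of the cytosol. The 8 genes considered were those of the plasma membrane calcium pumps, Atp2b1, Atp2b2, Atp2b3 and Atp2b4, of the endoplasmic reticulum pump Atp2a2, and of the sodium-calcium exchangers Slc8a1, Slc8a2 and Slc8a3. They were chosen by gene symbol, from array features annotated with exactly 1 gene symbol, keeping for each symbol its brightest feature. This gave 7 of the 8 genes, out of 30142 genes tested in all, and each of the 7 had 1 feature. The feature that carries Atp2b4 also carries a microRNA symbol, so Atp2b4 was not analysed here.

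The study hybridised RNA from 4 laser-captured pieces of mouse hippocampus to 12 Affymetrix arrays, 3 per piece. The pieces were the dendritic layer (stratum radiatum) of CA2, the cell body layer (stratum pyramidale) of CA2, the dendritic layer of CA1 and the cell body layer of CA1. All pieces came from male Amigo2-EGFP reporter mice (labelled Amigo2-GFP C57BL/6J) of 6 to 8 weeks, 3 animals from separate litters. The labels do not say whether the reporter, named for a gene that marks CA2, guided the capture. The 3 arrays of a group carry the numbers 1 to 3, and no label says in words that a number stands for a mouse, so p-values measure the spread between these arrays.

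As background, pumps of the plasma membrane (PMCA, the Atp2b genes) use ATP to export calcium with high affinity, and exchangers (NCX, the Slc8a genes) export calcium against the inward flow of sodium with high capacity. The Atp2a2 product (SERCA2) pumps calcium from the cytosol into the endoplasmic reticulum, from where it can be released again. In pyramidal neurons these routes end the calcium signals that synaptic input and action potentials set off in dendrites and spines. The dendritic layer holds apical dendrites together with axons, interneurons, glia and vessels, so a captured piece is a mixture of cells. In such bulk pieces fewer cells of a type and less RNA per cell cannot be told apart.

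Levels are the authors' normalized log2 values, on which 1 unit is 2-fold. Differences are dendritic minus cell body layer or CA2 minus CA1, with the standard error (SE) of the limma fit and p-values adjusted over all 30142 genes. Genes with an adjusted p below 0.05 are termed called. Where groups are said not to overlap, the share of all genes that did the same was not counted. Each gene has its own feature and probes, so a level of 1 gene is not set against that of another, and where genes of a family are subtracted within an array, the change of that difference between groups is what is described. The median over all genes tested lay between 6.42 and 6.61 on the 12 arrays, and the median of the external control features, which match no mouse RNA, between 5.13 and 5.48. Oocyte transcripts (15 genes fixed as a list) were high on 3 arrays, number 1 of the CA2 cell body layer and numbers 2 and 3 of the CA2 dendritic layer. Their centred median was 1.34 to 1.59 on these arrays and at most 0.16 on the other 9. The differences of the 7 genes were also fitted without these arrays. Values of list genes, list counts and differences within a family are given from all 12 arrays only. In the labelled tissue, the summed level of 9 measured pyramidal neuron markers (log2 of the sum) was 13.46 to 13.52 in the CA2 dendritic layer against 14.05 to 14.09 in the CA2 cell body layer. It was 13.74 to 13.76 in the CA1 dendritic layer against 14.12 to 14.16 in the CA1 cell body layer. All 8 measured CA2 markers were higher in the CA2 than in the CA1 cell body layer, by a median of 2.93. Of 7 CA1 markers, 5 were lower in the CA2 cell body layer. The dendritic layers were less distinct: 3 of the 8 CA2 markers were called higher in CA2 and 1 lower (median 0.25). Of the 7 CA1 markers, 4 were lower there in CA2 and 0 higher.

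The genes for calcium removal were lower in the dendritic layer in both regions, with 1 exception. In CA1, 6 of the 7 were called lower and 0 higher (median difference -1.19), and the call of Atp2b2 there was lost under several alternatives given below. Of all genes, 46.9% were called in CA1, 18.5% lower and 28.3% higher, with a median of 0.12. In CA2, 6 of the 7 were called lower and 0 higher (median -1.58). Of all genes, 34% were called in CA2, 17.8% lower and 16.2% higher, with a median of -0.03. Atp2b1, Atp2b3, Slc8a1 and Slc8a2 had the larger falls, between 2.28-fold and 4.81-fold, Atp2a2 and Atp2b2 the smaller ones, and Slc8a3 was the gene that did not pass in either region. The 3 arrays with oocyte transcripts are all of CA2, so leaving them out removes no CA1 array and keeps 1 CA2 dendrite array. In that fit the CA2 differences of the 6 genes lay between -2.31 (Slc8a2) and -0.75 (Atp2b2).

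**Figure D1:**
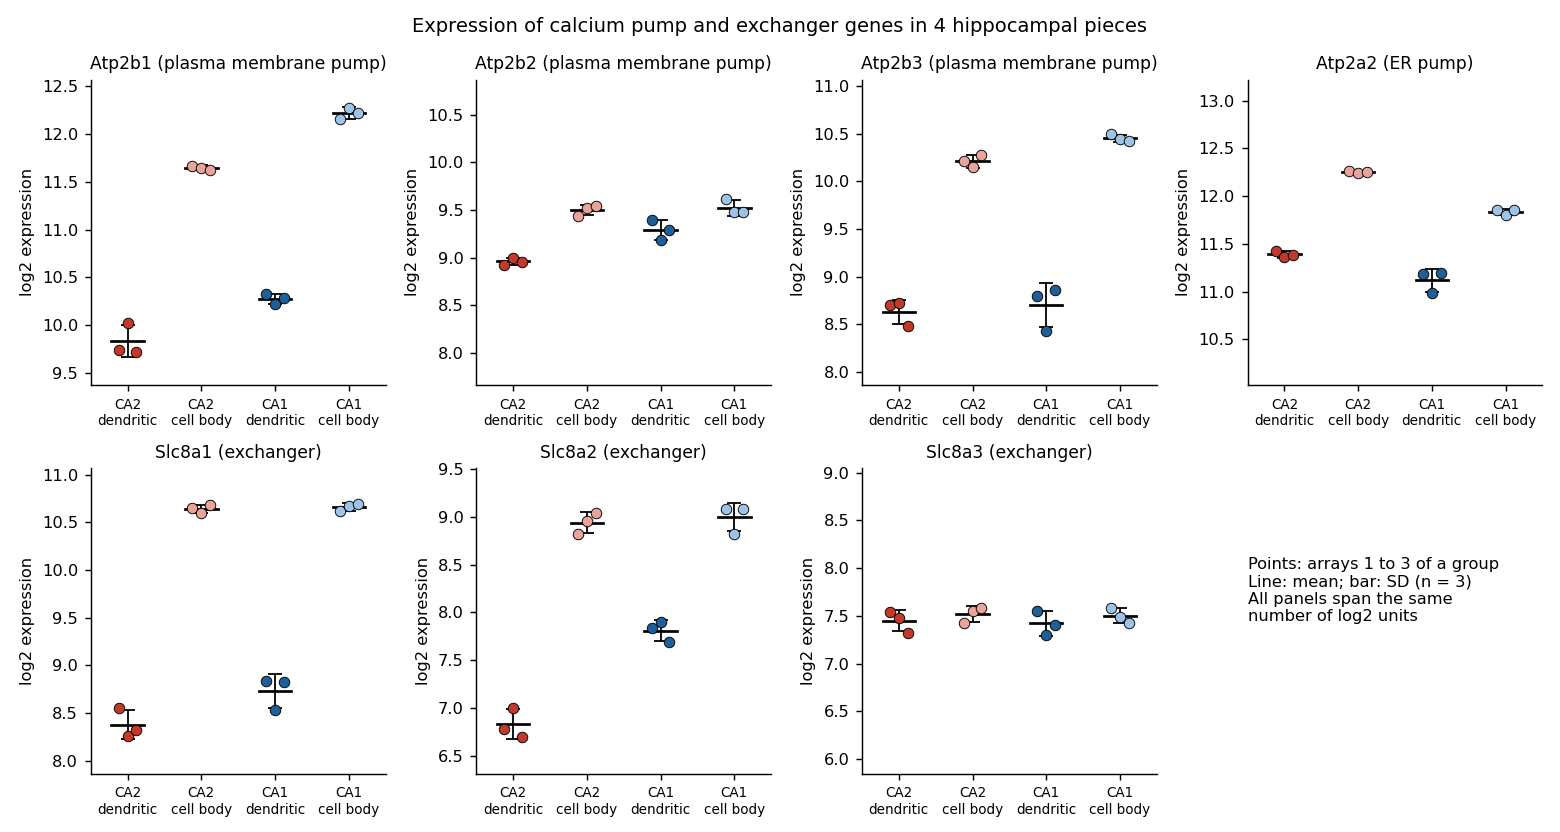
Log2 expression (vertical axis) of the 7 genes in the CA2 dendritic, CA2 cell body, CA1 dendritic and CA1 cell body layers (horizontal axis). Points are arrays, the line is the mean and the bar the SD of 3 arrays, and all panels span an equal number of log2 units. In 6 panels the dendritic arrays lie below the cell body arrays of their region, and in the Slc8a3 panel they overlap. The share of all genes with layers apart was not counted.

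Among the plasma membrane pumps, Atp2b1 encodes PMCA1, the broadly expressed form of the pump. Its feature read 9.74, 10.02 and 9.72 in the CA2 dendritic layer against 11.67, 11.65 and 11.62 in the CA2 cell body layer. In CA1 the values were 10.32, 10.22 and 10.28 in the dendritic layer against 12.16, 12.27 and 12.22 in the cell body layer. The groups did not overlap in either region, and all 4 groups were separate, with the CA1 cell body layer highest, then CA2 cell bodies, CA1 dendrites and CA2 dendrites. Atp2b1 fell by 1.82 in CA2 (SE 0.08, 3.53-fold lower, adjusted p = 8.8e-08) and by 1.94 in CA1 (SE 0.08, 3.85-fold lower, adjusted p = 6.6e-08).

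Atp2b3 encodes PMCA3, a form found mainly in brain. It read 8.70, 8.72 and 8.48 in the CA2 dendritic layer against 10.21, 10.15 and 10.28 in the CA2 cell body layer. In CA1 it read 8.80, 8.43 and 8.86 in the dendritic layer against 10.50, 10.44 and 10.42 in the cell body layer. The layers were far apart in both regions, while the 2 dendritic groups overlapped, with CA1 dendrite array 2 the lowest of all 12. Atp2b3 fell by 1.58 in CA2 (SE 0.11, 2.99-fold lower, adjusted p = 1.4e-06) and by 1.76 in CA1 (SE 0.11, 3.38-fold lower, adjusted p = 7.9e-07).

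Atp2b2 encodes PMCA2, a fast form that is abundant in cerebellar Purkinje cells and in hair cells. It read 8.92, 9.0 and 8.95 in the CA2 dendritic layer against 9.44, 9.52 and 9.54 in the CA2 cell body layer. For CA1 the feature read 9.39, 9.18 and 9.29 in the dendritic layer against 9.61, 9.48 and 9.48 in the cell body layer. The layers did not overlap in either region, but in CA1 the nearest arrays were 9.39 and 9.48. Atp2b2 fell by 0.54 in CA2 (SE 0.07, 1.46-fold lower, adjusted p = 2.0e-04) and by 0.24 in CA1 (SE 0.07, 1.18-fold lower, adjusted p = 0.0248). The CA1 call was lost after quantile normalization over the 12 arrays, which gave -0.05 (adjusted p = 0.664) and set the median difference of all genes in CA1 at 0.00 in place of 0.12. It was also lost in a fit of the 2 groups alone (adjusted p = 0.0565), with every feature tested (adjusted p = 0.0524), without any 1 replicate number (adjusted p = 0.0643, 0.143 and 0.0854), without CA1 dendrite array 2 (-0.18, adjusted p = 0.102) and without CA1 cell body array 1 (-0.19, adjusted p = 0.113) or 2 (-0.25, adjusted p = 0.0597). The CA2 call was kept in all 25 alternatives, between -0.75 and -0.43.

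Atp2a2 encodes SERCA2, the pump that refills the endoplasmic reticulum in most cells, neurons included. It read 11.43, 11.36 and 11.38 in the CA2 dendritic layer against 12.26, 12.24 and 12.25 in the CA2 cell body layer. The CA1 arrays read 11.18, 10.98 and 11.19 in the dendritic layer against 11.85, 11.80 and 11.85 in the cell body layer. The 4 groups did not overlap, and CA2 cell bodies were the highest, followed by CA1 cell bodies, CA2 dendrites and CA1 dendrites. Atp2a2 fell by 0.86 in CA2 (SE 0.06, 1.82-fold lower, adjusted p = 2.6e-06) and by 0.72 in CA1 (SE 0.06, 1.64-fold lower, adjusted p = 9.5e-06).

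Slc8a1 encodes NCX1, the exchanger best known from heart muscle and also made by neurons. It read 8.55, 8.26 and 8.32 in the CA2 dendritic layer against 10.65, 10.60 and 10.68 in the CA2 cell body layer. The CA1 arrays read 8.84, 8.53 and 8.83 in the dendritic layer against 10.62, 10.67 and 10.69 in the cell body layer. The cell body layers of both regions lay within a narrow band, and the dendritic groups overlapped at CA1 dendrite array 2 and CA2 dendrite array 1. Slc8a1 fell by 2.27 in CA2 (SE 0.09, 4.81-fold lower, adjusted p = 3.5e-08) and by 1.93 in CA1 (SE 0.09, 3.80-fold lower, adjusted p = 9.8e-08). Counted from the lowest difference, its fall in CA2 had rank 38 of 30142 genes and its fall in CA1 rank 139.

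Slc8a2 encodes NCX2, an exchanger found mainly in brain. It read 6.78, 7.00 and 6.70 in the CA2 dendritic layer against 8.82, 8.96 and 9.04 in the CA2 cell body layer. In CA1 it read 7.84, 7.90 and 7.69 in the dendritic layer against 9.08, 8.82 and 9.09 in the cell body layer. The cell body groups of the regions overlapped, while every CA2 dendrite array was below every CA1 dendrite array. Slc8a2 fell by 2.11 in CA2 (SE 0.11, 4.33-fold lower, adjusted p = 2.4e-07) and by 1.19 in CA1 (SE 0.11, 2.28-fold lower, adjusted p = 1.3e-05). These falls had rank 56 in CA2 and rank 567 in CA1.

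Slc8a3 encodes NCX3, an exchanger of brain and skeletal muscle. It read 7.54, 7.48 and 7.32 in the CA2 dendritic layer against 7.43, 7.55 and 7.58 in the CA2 cell body layer. In CA1 it read 7.55, 7.30 and 7.40 in the dendritic layer against 7.58, 7.49 and 7.43 in the cell body layer. All 4 groups overlapped, and no order of the groups exceeded the spread between arrays. The difference was -0.07 in CA2 (95% interval -0.26 to 0.12, adjusted p = 0.587) and -0.08 in CA1 (95% interval -0.27 to 0.11, adjusted p = 0.432). The arrays thus bound a layer difference to within 0.27 in either direction, against falls of 1.19 or more for the other exchanger genes.

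**Figure D2:**
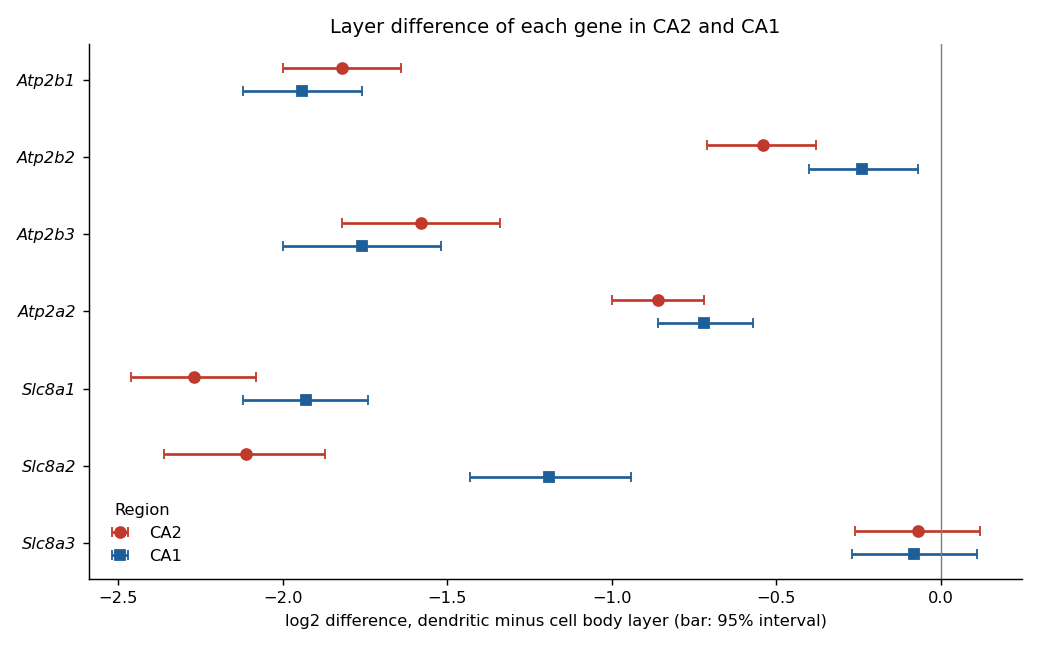
Log2 difference between the dendritic and the cell body layer (horizontal axis) of each gene in CA2 (circles) and CA1 (squares), with 95% intervals from the limma fit. Slc8a1 (-2.27 in CA2 and -1.93 in CA1) lies farthest left in CA2, Slc8a3 spans 0 in both regions, and the intervals of Slc8a2 are apart.

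Markers of other cells moved with the layers. The 11 astrocyte markers were all called higher in the dendritic layer of both regions, with a summed level of 14.10 to 14.20 in the CA2 dendritic against 12.15 to 12.17 in the CA2 cell body layer, while the CA1 dendritic layer had 14.14 to 14.17 against 11.92 to 12.01 in the CA1 cell body layer. All 9 microglia, 9 oligodendrocyte and 9 endothelial markers measured were higher in both dendritic layers too. Of 12 interneuron markers, 9 were higher and 0 lower in CA2. In CA1, 10 were higher and 1 lower (Pvalb, -0.57). Of 9 pyramidal neuron markers, 8 were lower and 1 higher in the CA2 dendritic layer (median -1.17), and 6 were lower and 1 higher in the CA1 dendritic layer (median -0.65). Neurod6, a transcription factor of these neurons, fell by 3.18 in CA2 and 2.57 in CA1, and Slc17a7, their vesicular glutamate transporter, fell by 1.17 in CA2 and 0.33 in CA1. Camk2a, whose mRNA is known to be carried into dendrites, rose by 0.68 in CA2 and 0.71 in CA1. The part of cell mixture in the falls of the calcium removal genes was not tested.

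The comparison of the layer differences asked whether the regions distribute these RNAs differently. It is free of any shift between runs that was equal in both layers. Of the 7 genes, 1 was called, lower in CA2, where 6.81% of all genes were called lower and 11.6% called in either direction. The median of the 7 genes was -0.14 and that of all genes -0.11. Slc8a2 had a layer difference of -2.11 in CA2 against -1.19 in CA1, and the difference between them was -0.93 (SE 0.16, 95% interval -1.27 to -0.58, adjusted p = 0.00536). Leaving out the 3 arrays that carry oocyte transcripts, which keeps 1 CA2 dendrite array, gave -1.12. It was -0.99 without replicate 1, where the call was lost (adjusted p = 0.0517), and was called in the other alternatives. Pyramidal neuron markers moved the same way, 5 of 9 being called lower and 0 higher in this comparison (median -0.59). Slc17a7 was among the 5 (-0.84, adjusted p = 0.00312). All 8 CA2 markers were also lower (median -2.47), as were 5 of 9 microglia markers, with 0 higher (median -0.41). Of 7 CA1 markers, 4 were higher and 0 lower (median 0.57). The part of the neuron share or of other cells in the Slc8a2 result was not tested. The other 6 calcium removal genes did not pass, with -0.34 (95% interval -0.61 to -0.07, adjusted p = 0.0934) for Slc8a1, -0.31 (95% interval -0.54 to -0.07, adjusted p = 0.0854) for Atp2b2 and -0.14 (95% interval -0.34 to 0.06) for Atp2a2. Atp2b1, at 0.12 (95% interval -0.13 to 0.38), Atp2b3, at 0.18 (95% interval -0.16 to 0.51), and Slc8a3, at 0.01 (95% interval -0.26 to 0.28), had the smallest differences relative to their errors.

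The regions were also compared within each layer. All CA2 arrays carry 1 run number and all CA1 arrays another, and a difference between regions cannot be separated from one between runs. In the cell body layer, Atp2a2 was higher in CA2, at 12.25 ± 0.01 against 11.83 ± 0.03 in CA1 (SD, n = 3 each), a difference of 0.42 (SE 0.06, adjusted p = 0.00115). Atp2b1 was lower in CA2, at 11.65 ± 0.03 against 12.22 ± 0.06 in CA1 (SD, n = 3 each), a difference of -0.57 (SE 0.08, adjusted p = 7.3e-04). These were 2 of the 7 genes, 1 higher and 1 lower, and 21.1% of all genes were called, 10.6% higher and 10.5% lower. Both calls were kept in all 25 alternatives, between 0.39 and 0.52 for Atp2a2 and between -0.61 and -0.47 for Atp2b1. Atp2b3 differed by -0.24 (adjusted p = 0.154), and passed in a fit of the 2 groups alone (adjusted p = 0.0393) and with array weights (adjusted p = 0.0399). Slc8a1 (-0.02), Slc8a2 (-0.06), Slc8a3 (0.02) and Atp2b2 (-0.02) had differences smaller than the spread between arrays, with 95% intervals that stayed within 0.30 of 0.

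In the dendritic layer 4 genes were lower and 1 higher in CA2, where 30.2% of all genes were called, 18.6% lower and 11.6% higher. Between these layers, 5 of 9 pyramidal neuron markers and 7 of 9 microglia markers were lower in CA2, and 0 of either higher. Of 9 oligodendrocyte markers 6 were higher in CA2, as were 6 of 9 endothelial markers, and 0 of either lower. The part of cell mixture in the differences between regions was not tested. Slc8a2 had the largest difference of the 7 genes, 6.83 ± 0.16 in CA2 against 7.81 ± 0.11 in CA1 (SD, n = 3 each), or -0.98 (SE 0.11, 1.98-fold lower, adjusted p = 2.8e-04), at rank 117 from the lowest of all genes. Atp2b1 had a difference of -0.45 (adjusted p = 0.0034), Slc8a1 had -0.36 (adjusted p = 0.0131), Atp2b2 -0.33 (adjusted p = 0.00972) and Atp2a2 0.27 (adjusted p = 0.0113). The Slc8a2 call was kept in all 25 alternatives, between -1.09 and -0.88. In a fit of the 2 groups alone, Slc8a2 was the only gene called, and the adjusted p was 0.0528 for Atp2b1, 0.0853 for Atp2b2, 0.112 for Atp2a2 and 0.0688 for Slc8a1. Without the 3 arrays with oocyte transcripts, which leaves 1 CA2 dendrite array, assumed to vary like the other groups, Slc8a2 (-1.09) and Atp2b1 (-0.53) were called, and Slc8a1 (-0.22), Atp2b2 (-0.46) and Atp2a2 (0.27) were not. Median centring of each array left 3 calls and ended those of Atp2b2 (adjusted p = 0.0876) and Slc8a1 (adjusted p = 0.0783), and quantile normalization ended that of Atp2a2 (adjusted p = 0.0751). Without CA2 dendrite array 2 or 3 the Slc8a1 call was lost as well (adjusted p = 0.0516 and 0.0533).

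Differences between genes of a family within an array, where a shift common to the array cancels, show how unequal their falls were. The 6 pairs were chosen after the values were seen, so they are described without a test and add no support to the differences of the single genes. The log2 value of Atp2b1 minus that of Atp2b2 was 0.77 to 1.02 in the CA2 dendritic against 2.08 to 2.23 in the CA2 cell body layer, while it was 0.93 to 1.04 in the CA1 dendritic against 2.55 to 2.79 in the CA1 cell body layer. The mean change over both regions was -1.49, and no dendrite array overlapped the cell body arrays of its region. The change was -1.28 for Atp2b3 minus Atp2b2 and -0.21 for Atp2b1 minus Atp2b3, a pair whose CA1 groups overlapped.

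Among exchangers, Slc8a1 minus Slc8a3 was 0.78 to 1.01 in the CA2 dendritic against 3.05 to 3.22 in the CA2 cell body layer, while it was 1.23 to 1.43 in the CA1 dendritic against 3.04 to 3.26 in the CA1 cell body layer. The mean change was -2.02, and that of Slc8a2 minus Slc8a3 was -1.57. Slc8a2 minus Slc8a1 changed by 0.15 in CA2, where the layers overlapped, and by 0.74 in CA1, where they did not (mean 0.45).

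**Figure D3:**
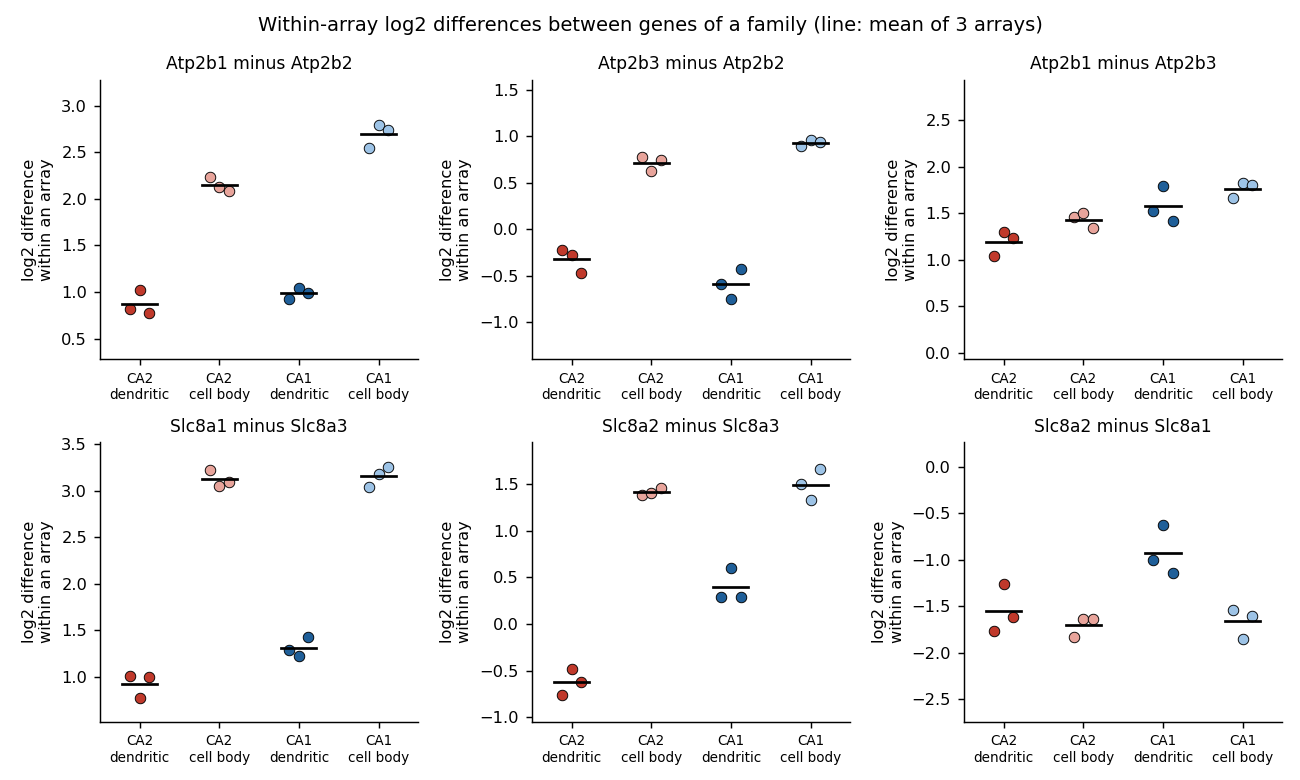
Within-array difference of log2 values between 2 genes of a family (vertical axis) in the 4 groups (horizontal axis). Points are arrays and lines are means of 3. Atp2b1 and Atp2b3 drop relative to Atp2b2, and Slc8a1 and Slc8a2 relative to Slc8a3, in the dendritic layers, while Slc8a2 minus Slc8a1 is highest in the CA1 dendritic layer.

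The promoters of the exchanger genes are shown because Slc8a1 and Slc8a2 were called lower in both dendritic layers and Slc8a3 was not. They are the 250 bases before 1 start per gene, as a table made from RefSeq gives it, build GRCm38.p6, with GC boxes in capitals. For Slc8a2 and Slc8a3 that start lies inside the span annotated for the gene, and other starts were not examined.
Slc8a1, chr17:81738388-81738637, minus strand: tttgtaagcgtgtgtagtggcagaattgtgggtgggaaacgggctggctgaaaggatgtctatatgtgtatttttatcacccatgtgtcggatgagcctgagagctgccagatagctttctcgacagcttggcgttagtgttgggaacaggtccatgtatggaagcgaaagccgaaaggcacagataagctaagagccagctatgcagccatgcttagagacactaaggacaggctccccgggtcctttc
Slc8a2, chr7:16129576-16129825, plus strand: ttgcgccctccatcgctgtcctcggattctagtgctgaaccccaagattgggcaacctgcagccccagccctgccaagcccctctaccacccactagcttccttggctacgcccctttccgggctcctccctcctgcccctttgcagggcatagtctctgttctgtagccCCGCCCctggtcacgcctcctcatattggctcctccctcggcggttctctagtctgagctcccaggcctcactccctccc
Slc8a3, chr12:81333181-81333430, minus strand: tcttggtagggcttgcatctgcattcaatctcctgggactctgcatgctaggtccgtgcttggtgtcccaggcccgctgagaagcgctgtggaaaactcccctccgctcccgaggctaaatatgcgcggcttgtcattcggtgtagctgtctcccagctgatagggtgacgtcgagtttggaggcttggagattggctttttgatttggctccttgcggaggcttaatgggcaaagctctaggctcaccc
The GC content was 50.4% for Slc8a1, 63.2% for Slc8a2 and 56.0% for Slc8a3, with 8, 9 and 11 CG dinucleotides, against medians of 52.4% and 6 over 32851 windows. On both strands, the GC box GGGCGG was found 1 time in Slc8a2 and in neither of the others, and 32.7% of all windows held it. The cyclic AMP response element TGACGTCA (1.55% of windows) and the TATA box TATAAA (12.4% of windows) were found in none of the 3 windows. The matches describe these letters and were not tested against expression.

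Other genes of calcium handling were counted from lists fixed by symbol. Among the other exchangers, the potassium-dependent sodium-calcium exchangers Slc24a1 to Slc24a5 were measured, and 3 of the 5 were lower in the dendritic layer in CA2 and 4 of the 5 in CA1, with 0 higher. Slc24a2, a potassium-dependent exchanger of neurons, read 9.71 ± 0.09 in the CA2 dendritic against 11.25 ± 0.02 in the CA2 cell body layer (SD, n = 3 each), a fall by 1.54 (SE 0.07, adjusted p = 8.9e-08), and fell by 1.31 in CA1 (SE 0.07, adjusted p = 3.0e-07). Slc24a3 fell by 1.14 in CA2 and 0.72 in CA1, and Slc24a4 by 1.29 in CA2 and 0.85 in CA1.

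Neuroplastin (Nptn) and basigin (Bsg) are auxiliary subunits of the plasma membrane pumps. Nptn read 9.64 ± 0.03 in the CA2 dendritic against 10.28 ± 0.03 in the CA2 cell body layer, and 9.28 ± 0.12 in the CA1 dendritic against 10.24 ± 0.10 in the CA1 cell body layer (SD, n = 3 each). It fell by 0.64 in CA2 (SE 0.08, adjusted p = 8.2e-05) and by 0.97 in CA1 (SE 0.08, adjusted p = 4.6e-06). Bsg, which is also abundant in brain endothelium, rose by 0.22 in CA2 (SE 0.07, adjusted p = 0.0252) and by 0.33 in CA1 (SE 0.07, adjusted p = 0.00222). The partners of the pump thus differed in direction.

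Of the small membrane proteins that regulate SERCA pumps in muscle, 3 of 4 fixed genes were measured, and 2 were higher in the CA2 and 3 in the CA1 dendritic layer. Pln (phospholamban) read 7.14 ± 0.21 in the CA2 dendritic against 5.24 ± 0.10 in the CA2 cell body layer, and 6.56 ± 0.12 in the CA1 dendritic against 5.56 ± 0.22 in the CA1 cell body layer (SD, n = 3 each). It rose by 1.90 in CA2 (SE 0.11, adjusted p = 4.7e-07) and by 1.0 in CA1 (SE 0.11, adjusted p = 3.9e-05), and the difference between the regions was 0.90 (SE 0.16, adjusted p = 0.00597). The cell body values of Pln lay near the medians of the external control features (5.13 to 5.48). The sizes of the Pln differences are therefore uncertain. The 8 mural cell markers, of smooth muscle and pericytes, were all higher in both dendritic layers, with summed levels of 12.08 to 12.24 in the CA2 dendritic against 10.05 to 10.29 in the CA2 cell body layer, while CA1 had 11.65 to 11.95 in the dendritic against 9.98 to 10.04 in the cell body layer. Their part in the Pln rise was not tested. Sln (sarcolipin) rose by 0.71 in CA2 and 0.89 in CA1.

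The sodium pump keeps up the gradient that drives the exchangers. Of its subunit genes 4 were measured, among them 3 beta subunits. Atp1b1, the subunit of most neurons, fell by 0.42 in CA2 and 0.58 in CA1. Atp1b2, the subunit of astrocytes, read 10.81 ± 0.04 in the CA2 dendritic against 9.05 ± 0.11 in the CA2 cell body layer, and 10.65 ± 0.07 in the CA1 dendritic against 9.78 ± 0.07 in the CA1 cell body layer (SD, n = 3 each). It rose by 1.77 in CA2 (SE 0.08, adjusted p = 8.3e-08) and by 0.87 in CA1 (SE 0.08, adjusted p = 9.9e-06), and these rises differed by 0.90 (SE 0.11, adjusted p = 9.9e-04). Atp1b3 rose by 0.60 in CA2 and 0.58 in CA1.

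Of 9 measured genes for release and refilling of the reticulum store, 7 were lower and 1 higher in the CA2 dendritic layer, and 4 were lower and 2 higher in the CA1 dendritic layer. The ryanodine receptors, calcium release channels, included Ryr2, which fell by 2.15 in CA2 (SE 0.07, adjusted p = 2.1e-08) and by 1.78 in CA1 (SE 0.07, adjusted p = 6.4e-08). Ryr3 fell by 2.05 in CA2 (SE 0.08, adjusted p = 5.8e-08) and by 2.39 in CA1 (SE 0.08, adjusted p = 2.6e-08). Stim2, a sensor of store calcium, fell by 1.57 in CA2 and 1.23 in CA1. Itpr2, the inositol trisphosphate receptor of astrocytes, rose by 1.66 in CA2 (SE 0.08, adjusted p = 1.0e-07) and by 1.58 in CA1 (SE 0.08, adjusted p = 1.6e-07). Astrocyte markers rose in both dendritic layers, and so did microglia, oligodendrocyte, endothelial and mural markers. The part of these cells in the Itpr2 rise was not tested. Of 3 other calcium pump genes measured, Atp2a3 (SERCA3) rose by 0.23 in CA2 and 0.38 in CA1, Atp2c2, a pump of the secretory pathway, fell by 0.36 in CA2 and differed by 0.16 in CA1 (adjusted p = 0.0992), and the other was called in neither.

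**Figure D4:**
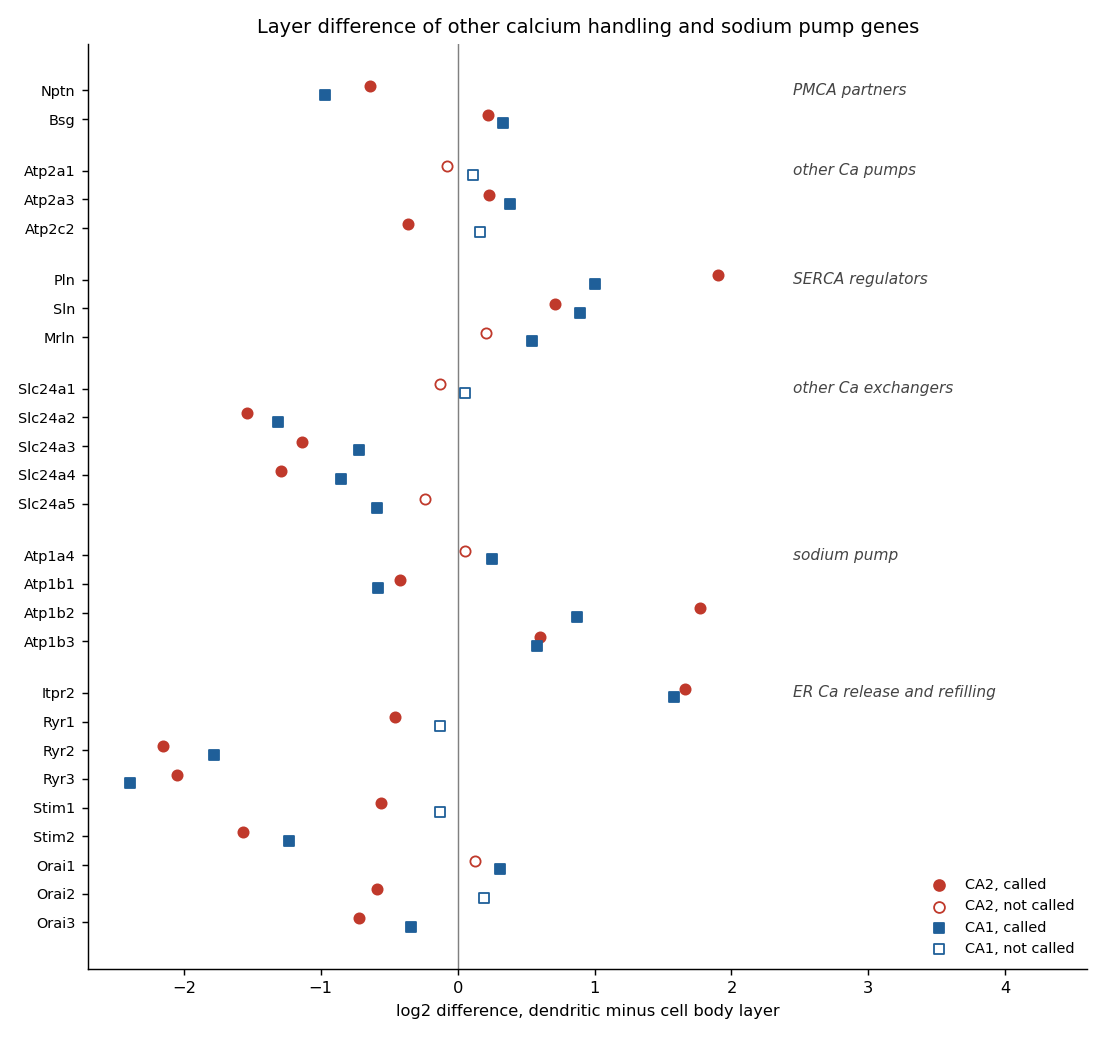
Log2 difference between the dendritic and cell body layers (horizontal axis) of other calcium handling genes and sodium pump subunits, grouped by list, in CA2 (circles) and CA1 (squares). Filled symbols were called and open ones were not. Ryr2, Ryr3, Stim2 and Slc24a2 lie left of 0, and Pln, Atp1b2 and Itpr2 right of it.

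The members resembled each other over the 12 arrays, which share the 4 groups, so these correlations describe the group pattern. Pearson's r was 0.99 between Atp2b3 and Slc8a1, 0.98 between Atp2b1 and Atp2b3, and 0.96 between Atp2b2 and Slc8a2, and r between Slc8a3 and each of the others was 0.37 to 0.49. Among 11646 named genes with a mean above the median of all genes, leaving out predicted genes, small RNAs and odorant receptors, those most like Atp2b1 were Bcl11a, Epha6 and Grin2b (r = 0.994 to 0.995). Those most like Atp2b3 were Plppr4, Vps53 and Plxna2 (r = 0.996 to 0.997), those most like Atp2b2 were Sec14l1, Cyfip2 and Nol6 (r = 0.985 to 0.993), and those most like Atp2a2 were Asns, Ubr3 and Kif3a (r = 0.994 to 0.995). Slc8a1 was most like Gpr22, Reps2 and Fbxw7 (r = 0.995 to 0.997), and Slc8a2 most like Fry, Ifngr2 and Plxna4 (r = 0.991 to 0.997). For Slc8a3 the nearest genes were Med12l, Armcx2 and Bcl7b, with r of 0.848 to 0.905.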

How the data were processed

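The deposited values are log2 expression values that the authors made with RMA, per the submitters' processing notes. Its software, its version, and whether both runs were normalized as 1 set: not given in the sources used here. Of 72688 features, 30604 had 1 gene symbol. Symbols were updated through Entrez identifiers (22818 matched RefSeq, 827 symbols changed), and the brightest feature of each gene was kept, leaving 30142 genes.

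All genes were fitted with limma 3.58.1 in R 4.3.3 (lmFit, eBayes, two-sided) with 1 mean per group and a block for replicate number over all 12 arrays, with Benjamini-Hochberg adjustment. The fit was tested on simulated data. The labels' protocols take the 4 pieces from each of 3 mice, but the numbers did not pair the arrays in the data: 1 of 18 same-number pairs had deviations correlated above 0.1 (range -0.346 to 0.132). Precision is limited by the 3 arrays per group, and arrays have no read depth. The labels give every array the same ranges of RNA integrity and of RNA input, the latter a few nanograms. Neither could be compared between groups. All 8 genes were to be named whatever their value, and the nearest 3 genes by correlation for each. The members and lists were chosen with earlier results of these data known.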

Additional observations from a re-analysis of the deposited data

Results flagged for a closer look

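Slc8a2 had a larger fall in the dendritic layer of CA2 than of CA1, with a difference between the layer differences of -0.93 (SE 0.16, adjusted p = 0.00536, limma). It was the only one of the 7 genes for which this comparison passed, where 11.6% of all genes were called, 6.81% of them lower in CA2 as a share of all genes. The Slc8a2 call was lost without replicate 1 (-0.99, adjusted p = 0.0517, limma). Of 9 pyramidal neuron markers, 5 were also called lower in this comparison and 0 higher, as were 5 of 9 microglia markers. Of 7 CA1 markers, 4 were called higher and 0 lower. The part of these cells was not tested. For Slc8a2, all 3 CA2 dendrite arrays were below all 3 CA1 dendrite arrays, a difference that cannot be separated from one between runs. The dendrite arrays of the regions were also apart for Atp2b1, Atp2b2 and Atp2a2. The share of all genes with these arrays apart was not counted.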

How the results depend on the processing

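Of 868 values of single genes under the alternatives, 798 kept their direction and side of the threshold, 28 lost a call, 2 gained one and 40 changed sign, none of the 40 being a called value. In the layer comparisons 6 genes were called in CA2 under every alternative and 5 or 6 in CA1, the changes being those of Atp2b2. Without the replicate block, 6 genes were called in CA2 and 6 in CA1 between layers, 1 between the layer differences, and 2 in the cell body and 5 in the dendritic layer between regions, as with the block, and all genes called numbered 10625, 14757, 4387, 6864 and 10138 in that order. Testing every feature called 15383 features in CA2 and 22235 in CA1 between layers, and 11487 between regions in the cell body layer, of 72688. Without the 3 arrays carrying oocyte transcripts, 5707 genes were called between layers in CA2, 699 between the layer differences and 1918 between regions in the dendritic layer, where 2 of the 7 genes were called. In that dendritic comparison a fit of the 2 groups alone called 3109 genes and 1 of the 7, array weights called 5579 genes, and median centring called 3 of the 7. Differences near 0 that changed sign between the layer differences were Atp2b1 (-0.07 with quantile normalization) and Slc8a3 (0.00 with array weights, -0.10 without the arrays carrying oocyte transcripts). Between regions, centring turned Atp2b2 (0.08), Slc8a1 (0.08) and Slc8a2 (0.04) in the cell body layer and Atp2b3 (0.04) in the dendritic layer, and leaving out the arrays with oocyte transcripts turned Atp2b2 (0.05) and Slc8a2 (0.03) in the cell body layer. Leaving out an array or a replicate number gave 697 to 4878 genes and 0 to 1 of the 7 between the layer differences, 3451 to 6743 genes between regions in the cell body layer, and 3663 to 9706 genes and 2 to 5 of the 7 in the dendritic layer. The signs turned under these omissions for Slc8a3 in CA2 between layers (-0.17 to 0.02), and between the layer differences for Atp2b1 (-0.03 to 0.23), Atp2b3 (-0.03 to 0.38) and Slc8a3 (-0.09 to 0.13). They turned in the cell body layer for Atp2b2 (-0.06 to 0.05), Slc8a1 (-0.08 to 0.05), Slc8a2 (-0.19 to 0.05) and Slc8a3 (-0.05 to 0.12), and in the dendritic layer for Atp2b3 (-0.24 to 0.09) and Slc8a3 (-0.05 to 0.09). Between regions in the dendritic layer, calls were also lost without replicate 1 (Atp2b1, adjusted p = 0.0547, Atp2b2, 0.0814, and Atp2a2, 0.0749), replicate 2 (Atp2a2, 0.123) and replicate 3 (Atp2b2, 0.0677, and Slc8a1, 0.118). The cause of these changes was not tested. Each gene had 1 feature, so the choice of another feature per gene could not be run.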
